A study of Sus scrofa with 16 samples.

Results

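The genes of cholesterol synthesis and of fatty acid synthesis were followed in the hippocampus of preterm pigs with or without necrotizing enterocolitis (NEC), an inflammatory gut disease of preterm newborns. The list held 35 genes chosen by symbol, 21 of a sterol branch and 14 of a fatty acid branch, and the one measured value in the rule was a mean of at least 0.5 FPKM (fragments scaled to transcript length and to the mapped total of the library) over all pigs. The list was drawn up with earlier results of these pigs known, so the p-values of its members describe these pigs and are not independent support. Of the 35 genes, 26 were matched by symbol in a table of 24594 rows, and 24 of those passed the minimum. They gave 25 entries of the 13590 that were tested, because TM7SF2 was listed in 2 different rows. The sterol branch kept 15 genes in 16 entries, and the fatty acid branch kept 9 genes in 9 entries. SREBF2 and ELOVL5 were listed at 0 in all 16 pigs, and the member closest to the minimum from above was the first entry of TM7SF2 with a mean of 4.10 FPKM. PMVK, MVD, CYP51A1, EBP, STARD4, SREBF1, ELOVL1, ELOVL6 and ELOVL7 were not analysed here.

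RNA was sequenced from the left hippocampus of 16 pigs that were delivered preterm by cesarean section. They were fed human donor milk, of which the study used different types, beside parenteral nutrition, and were killed at an age of 8 days. All pigs were crossbred Danish landrace, Large White and Duroc with no transgene or deletion named in the labels, and NEC arose spontaneously, so the groups were formed by gut lesions found after death and not by an assigned treatment. The Si-NEC group (6 pigs, 3 female and 3 male, siNEC in the labels) had severe small intestinal lesions, alone or together with lesions of the colon, the Co-NEC group (5 pigs, 2 female and 3 male, coNEC) had severe lesions in the colon alone, and the No NEC group (5 pigs, 2 female and 3 male, noNEC) had no visible lesion in any region. There was no term-born group, and neither the litter nor the milk type of each pig was in the labels. Whole tissue was used, so fewer cells of a type and less RNA per cell cannot be told apart. Hippocampal markers were present in every pig, with means of 62.9 FPKM for LHX2, 7.90 FPKM for PROX1 and 8.48 FPKM for NEUROD1.

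Sequencing depth cannot be read from FPKM alone. Summed over entries, 14 pigs reached 544629 to 645197 FPKM, whereas Si-NEC pig 223-15 reached 823320 and No NEC pig 230-15 reached 864931. In median correlation with the remaining pigs both were last, at 0.933 and 0.902, where no other pig was under 0.949. Both stood apart in the lipid genes, so results that rest on them are given with and without them.

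Cholesterol in the brain is made locally, since lipoproteins of the blood do not cross the blood-brain barrier, and demand is high while membranes and myelin are being laid down. Acetyl-CoA is built into mevalonate, isoprenoid units, squalene and then cholesterol. Fatty acid synthesis starts from the same acetyl-CoA, and its products are elongated and desaturated. Both branches are driven by sterol regulatory element binding proteins (SREBPs), which INSIG1 holds back in the endoplasmic reticulum when sterols are plentiful, SREBP2 (gene SREBF2) acting mainly on sterol genes and SREBP1 (gene SREBF1) mainly on fatty acid genes.

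The members were well expressed. Over all pigs, 24 of the 25 entries had a mean above the median of 9.44 FPKM of all tested entries, the exception being the first entry of TM7SF2. FPKM is scaled to transcript length, so these levels can be set side by side. The mean was 157 FPKM for HMGCS1, 136 FPKM for FADS2 and 127 FPKM for MSMO1, while MVK stood at 13.7 FPKM and HSD17B7 at 17.8 FPKM. The highest pig was 1.53 times the lowest for FADS1 and 1.56 times for INSIG1, and 4.89 times for FASN.

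**Figure D1:**
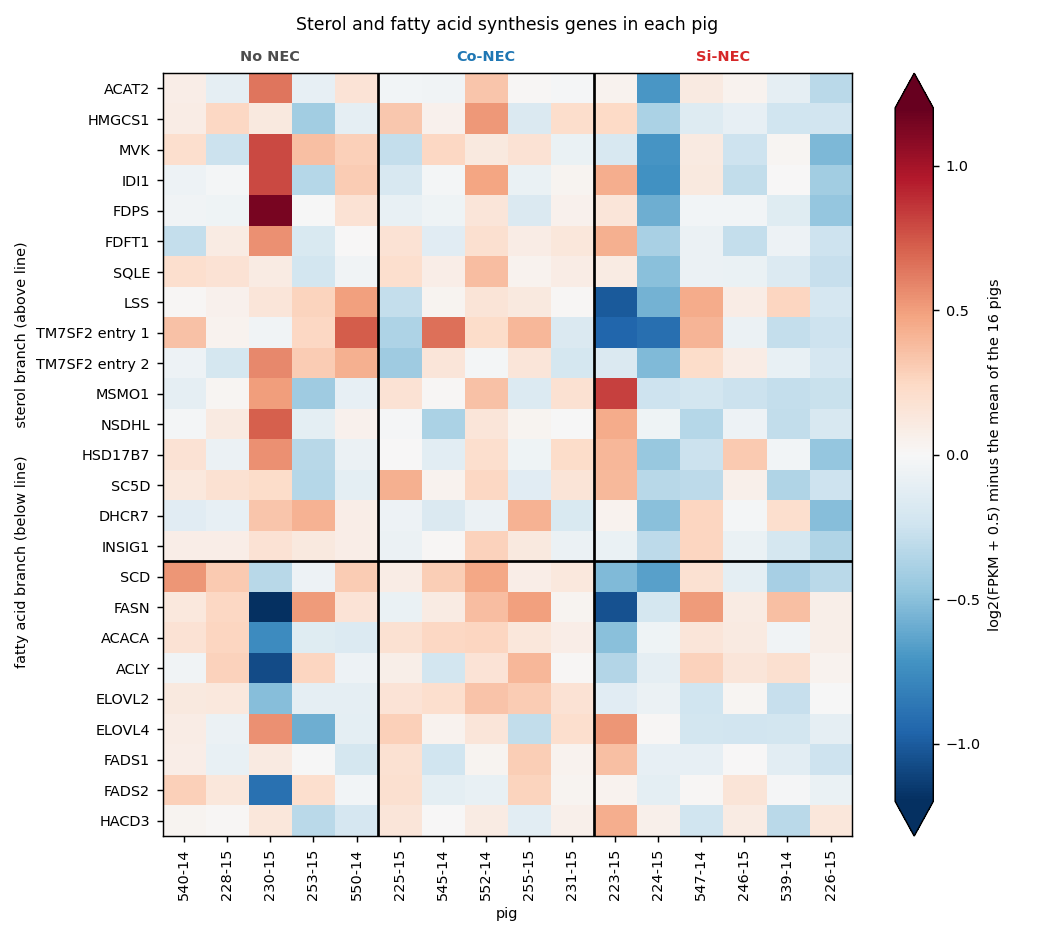
Each cell gives one entry (vertical axis) in one pig (horizontal axis, ordered by group) as log2(FPKM + 0.5) minus the mean of the 16 pigs, red above and blue below the mean. Si-NEC pigs 224-15 and 226-15 lie below the mean in all 16 sterol entries, and No NEC pig 230-15 is high in the sterol branch and low in FASN, ACACA, ACLY and FADS2.

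In the sterol branch, the Si-NEC pigs had the lowest group mean in all 16 entries, but no entry passed the test. Groups were compared in pairs with limma on log2(FPKM + 0.5), so differences below are on that log2 scale, with Benjamini-Hochberg adjustment over all 13590 entries and a threshold of 0.2. No member passed it in any comparison, against 0.00736% of all entries (1 entry) in Si-NEC against No NEC, 0.00736% (1 entry) in Co-NEC against No NEC and 0.0147% (2 entries) in Si-NEC against Co-NEC. At an unadjusted limma p under 0.05, 3 of the 25 entries were lower and 0 higher in Si-NEC against No NEC, where 1.02% of all entries were lower and 1.59% higher. In Co-NEC against No NEC 1 was higher and 0 lower, where 2.12% of all entries were higher and 1.32% lower. In Si-NEC against Co-NEC 4 were lower and 0 higher, where 2.40% of all entries were lower and 3.25% higher. No member separated Si-NEC from No NEC without overlap, as 0.0368% of all entries did in the lower direction. The adjusted p of every member was 1 in the first comparison, at least 0.812 in the second and at least 0.767 in the third (limma). Each comparison uses a group that another one also uses, so they are not independent of each other.

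Between Si-NEC and No NEC, all 16 sterol entries had a difference under 0, with a median of -0.23 and a range of -0.61 to -0.06. Over all tested entries the median was 0.02, with 46.3% under 0 and 53.7% above. The 2 sterol entries with an unadjusted limma p under 0.05, both lower in Si-NEC, were MVK and the first entry of TM7SF2, 12.5% of the branch against 1.02% of all entries. The members move together between pigs, as shown further on, so 16 entries on one side are not 16 separate observations. Without pigs 223-15 and 230-15 the median was -0.20 and all 16 entries stayed under 0. Without pig 230-15 alone the median was -0.16, with 15 of 16 entries under 0. The direction did not hold for every entry within sex or number suffix, in splits of few pigs. In females, MSMO1 (0.31), HSD17B7 (0.29), SC5D (0.12), NSDHL (0.11) and HMGCS1 (0.002) were above 0. Among pigs of number suffix 14, DHCR7 (0.26), LSS (0.10) and FDFT1 (0.07) were above 0. The rest were under 0 there, as were all sterol entries in males and in suffix 15.

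MVK (ENSSSCG00000009931) encodes mevalonate kinase, which phosphorylates mevalonate. Its levels in the No NEC pigs were 11.04, 15.4, 16.3, 17.2 and 23.4 FPKM, the highest in pig 230-15, and in the Co-NEC pigs 10.8, 12.6, 14.5, 15.1 and 15.9 FPKM. The Si-NEC pigs ranged from 7.95 to 14.4, with a median of 11.3 FPKM. All 6 Si-NEC pigs lay below the No NEC median of 16.3 FPKM, but the groups overlapped, because 1 No NEC pig was also low. The difference between Si-NEC and No NEC was -0.54 ± 0.20 (SE; exact permutation test, two-sided p = 0.0346), which is a mean 32.6% lower. Without both pigs that stood apart it was -0.42. It was -0.18 among pigs of number suffix 14 and -0.72 among those of suffix 15, a suffix whose meaning is not given in the labels, and -0.44 in females and -0.56 in males. The Co-NEC group lay between, at -0.24 ± 0.18 relative to No NEC (exact permutation p = 0.23) and -0.11 without pig 230-15, and Si-NEC relative to Co-NEC was -0.30 ± 0.16 (exact permutation p = 0.108).

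HMGCS1 (ENSSSCG00000016872) encodes the cytosolic HMG-CoA synthase at the entry of the pathway. The No NEC pigs had 116, 144, 165, 168 and 184 FPKM and the Co-NEC pigs 137, 160.1, 179, 195 and 223 FPKM. The Si-NEC pigs ranged from 119 to 183, with a median of 136 FPKM, with pig 223-15 highest. Co-NEC held the highest pig and Si-NEC was the narrower and lower group apart from 223-15. Si-NEC relative to Co-NEC was -0.33 ± 0.14 (SE; exact permutation p = 0.0519), a mean 20.9% lower, with 3 of 6 Si-NEC pigs below every Co-NEC pig. It was -0.41 without pig 223-15, -0.10 in females and -0.51 in males. Relative to No NEC, Si-NEC differed by -0.13 ± 0.14 (exact permutation p = 0.355) and Co-NEC by 0.20 ± 0.16 (exact permutation p = 0.27), both within the spread between pigs.

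The other enzymes up to the isoprenoid units were ACAT2 (acetoacetyl-CoA thiolase), IDI1 (isopentenyl diphosphate isomerase) and FDPS (farnesyl diphosphate synthase). ACAT2 averaged 119 ± 27.6 FPKM (SD, n = 5) in No NEC, 111 ± 13.1 FPKM (n = 5) in Co-NEC and 97.6 ± 19.0 FPKM (n = 6) in Si-NEC. IDI1 averaged 34.5 ± 11.3, 31.6 ± 6.11 and 28.3 ± 8.25 FPKM in the same order. By mean, both followed the order No NEC, Co-NEC, Si-NEC, with group differences within the spread. No NEC pig 230-15 was the highest of all pigs in both. Without it, Co-NEC relative to No NEC was 0.04 for ACAT2 and 0.07 for IDI1, so Co-NEC was then not below No NEC. FDPS had 81.0, 81.6, 83.8, 95.1 and 186 FPKM in the No NEC pigs, 74.6, 79.3, 81.2, 87.4 and 93.1 FPKM in the Co-NEC pigs and 56.0 to 93.0, with a median of 79.1 FPKM in the Si-NEC pigs. Pig 230-15 raised the No NEC mean. The Si-NEC difference was -0.43 ± 0.22 (exact permutation p = 0.0952) with it and -0.20 without it.

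SQLE (ENSSSCG00000005970) encodes squalene epoxidase, a rate-limiting step between squalene and the sterols. The No NEC pigs had 69.9, 79.0, 87.0, 91.8 and 93.9 FPKM and the Co-NEC pigs 83.7, 85.9, 86.6, 93.4 and 105 FPKM. The Si-NEC pigs ranged from 57.4 to 87.0, with a median of 74.9 FPKM. Of the 6 Si-NEC pigs, 5 lay below every Co-NEC pig, and pig 223-15 was the exception. Si-NEC relative to Co-NEC was -0.32 ± 0.11 (SE; exact permutation p = 0.0173), a mean 19.6% lower. The difference was in the same direction within both number suffixes (-0.34 for suffix 14 and -0.30 for suffix 15), and within both sexes (-0.22 in females and -0.39 in males). Relative to No NEC it was -0.21 ± 0.13 (exact permutation p = 0.113) in Si-NEC and 0.11 ± 0.11 (exact permutation p = 0.325) in Co-NEC.

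TM7SF2 (ENSSSCG00000013004) encodes a sterol reductase. Its 2 rows carried the same identifier and different values, and the second was 25.4 to 74.0 times the first, so which row stands for the whole gene is uncertain. The first entry had 3.75, 4.01, 4.68, 5.08 and 6.76 FPKM in No NEC, 2.89, 3.38, 4.59, 5.28 and 6.41 FPKM in Co-NEC and 1.76 to 5.3, with a median of 3.14 FPKM in Si-NEC. In this entry 5 of 6 Si-NEC pigs lay below every No NEC pig, and the difference was -0.61 ± 0.25 (SE; exact permutation p = 0.0476). Relative to Co-NEC it was -0.49 ± 0.26 (exact permutation p = 0.143). The second entry had 127, 141, 181, 198 and 219 FPKM in No NEC, 109.5, 127, 145, 162 and 162 FPKM in Co-NEC and 102 to 172, with a median of 134 FPKM in Si-NEC. There the groups overlapped throughout. The second entry differed from No NEC by -0.32 ± 0.17 (exact permutation p = 0.104) in Si-NEC and by -0.28 ± 0.18 (exact permutation p = 0.175) in Co-NEC.

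LSS (ENSSSCG00000021418) encodes lanosterol synthase, which closes the sterol rings. It had 40.6, 41.7, 44.6, 48.4 and 56.7 FPKM in No NEC, 32.9, 40.5, 41.2, 43.7 and 44.8 FPKM in Co-NEC and 19.8 to 54.9, with a median of 38.9 FPKM in Si-NEC. The lowest pig was 223-15, whose LSS was low while its MSMO1, NSDHL and IDI1 were the highest of the Si-NEC group. Relative to No NEC, LSS differed by -0.36 ± 0.24 (exact permutation p = 0.216) in Si-NEC and by -0.19 ± 0.12 (exact permutation p = 0.143) in Co-NEC. Without both pigs that stood apart, these were -0.20 and -0.20.

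Of the remaining enzymes after squalene, MSMO1 (methylsterol monooxygenase) turned on a single pig. The Si-NEC pigs had a median of 104 FPKM, and pig 223-15 had 219.5 FPKM, while the Co-NEC pigs had 111, 125, 140.1, 141 and 159 FPKM. The 5 other Si-NEC pigs lay below every Co-NEC pig. SC5D (sterol-C5-desaturase) averaged 49.3 ± 7.8 FPKM in No NEC, 54.1 ± 8.04 FPKM in Co-NEC and 44.9 ± 10.3 FPKM in Si-NEC, the last -0.28 ± 0.15 relative to Co-NEC (exact permutation p = 0.121), with 4 of 6 Si-NEC pigs below every Co-NEC pig. FDFT1 (squalene synthase) averaged 76.9 ± 18.5, 78.3 ± 6.86 and 69.5 ± 15.4 FPKM, and DHCR7 (7-dehydrocholesterol reductase) 41.6 ± 7.33, 37.9 ± 7.19 and 36.3 ± 8.19 FPKM in the order No NEC, Co-NEC, Si-NEC. NSDHL averaged 29.2 ± 7.61, 25.2 ± 3.29 and 24.7 ± 5.48 FPKM and HSD17B7 18.5 ± 4.58, 18.2 ± 1.996 and 16.98 ± 4.64 FPKM. Those 4 enzymes did not differ beyond the spread in any comparison, with exact permutation p from 0.203 up.

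INSIG1 (ENSSSCG00000016420) is a regulator that retains SREBPs and is itself an SREBP target. The No NEC pigs were close together at 41.5, 41.6, 41.6, 42.6 and 44.4 FPKM, and the Co-NEC pigs had 37.4, 37.5, 39.8, 42.8 and 47.7 FPKM. The Si-NEC pigs ranged from 30.5 to 47.0, with a median of 35.6 FPKM. Of the 6 Si-NEC pigs, 5 lay below every No NEC pig and 1, pig 547-14, lay above them all. The difference from No NEC was -0.24 ± 0.11 (SE; exact permutation p = 0.0519). From Co-NEC it was -0.19 ± 0.12 (exact permutation p = 0.13). SREBF2, the main activator of this branch, was listed at 0 in every pig, which can be a failed estimate, so no level is given.

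**Figure D2:**
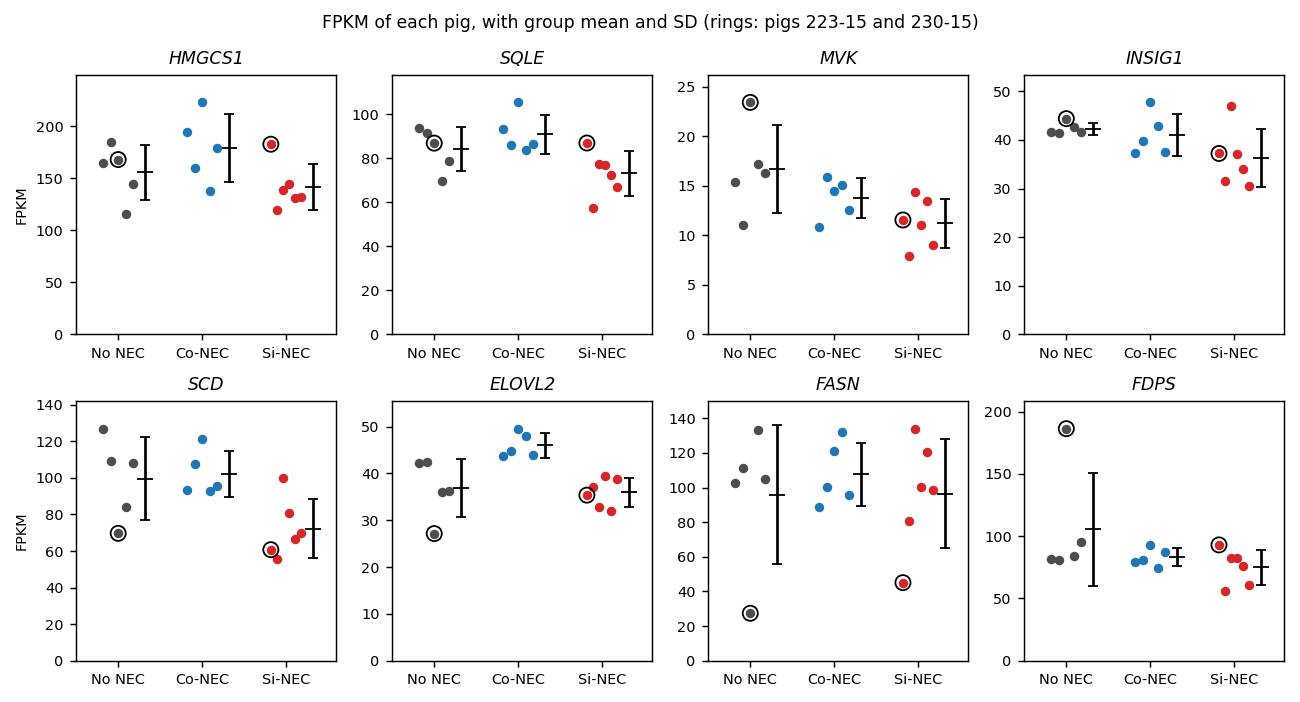
FPKM (vertical axes, starting at 0) of 8 genes in each pig by group, with the group mean and SD as a bar to the right of the points and rings around pigs 223-15 and 230-15. ELOVL2 is the gene whose Co-NEC pigs all lie above the pigs of both other groups, and the ringed pigs are the 2 lowest in FASN.

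Between Co-NEC and No NEC the sterol branch showed no common direction. The median difference was -0.09 over 16 entries, 6 above 0 and 10 under 0, with a range of -0.28 to 0.20, and over all entries the median was 0.01 with 47.9% under 0. No sterol entry had an unadjusted limma p under 0.05. Without pig 230-15 the median was 0.00, with 8 entries on each side.

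Between Si-NEC and Co-NEC all 16 sterol entries were again under 0, with a median of -0.19 and a range of -0.49 to -0.04, where the median over all entries was 0.00 and 50.0% lay under 0. HMGCS1 and SQLE had an unadjusted limma p under 0.05, 12.5% of the branch against 2.40% of all entries lower at that p. Leaving out pig 223-15 gave a median of -0.27, and 5 sterol entries then had such a p, where 4.66% of all entries were lower at that p in the same fit. Leaving out pig 224-15 gave -0.12, with 14 of 16 entries under 0.

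**Figure D3:**
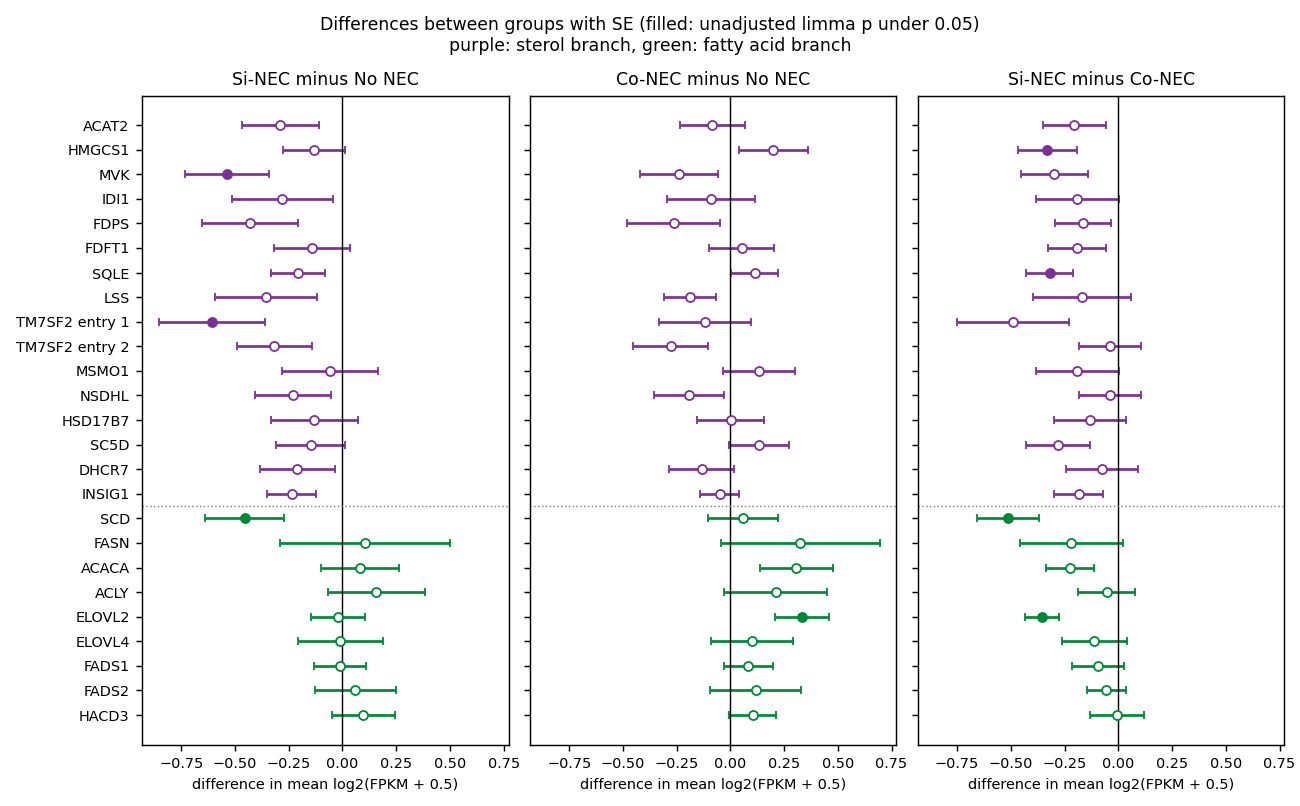
Difference in mean log2(FPKM + 0.5) with its SE (horizontal axes) for the 25 entries (vertical axis) in the 3 comparisons, filled where the unadjusted limma p is under 0.05. All 16 sterol entries lie left of 0 in both comparisons that include Si-NEC, and none of the 25 differences passed the adjusted threshold.

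The fatty acid branch did not follow the sterol branch in Si-NEC against No NEC. The median difference of its 9 entries was 0.06, 5 above 0 and 4 under 0, and without the 2 pigs that stood apart it was -0.06. In Co-NEC against No NEC all 9 were above 0, where 52.1% of all entries were, with a median of 0.12. Leaving out pig 230-15 kept the median at 0.12 but left 5 above and 4 under 0. In Si-NEC against Co-NEC all 9 were under 0 with a median of -0.11, or 8 of 9 and -0.13 without pig 223-15.

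SCD (ENSSSCG00000010554) encodes stearoyl-CoA desaturase, which makes oleate from stearate. The study itself picked SCD from these pigs when it set Si-NEC against Co-NEC, so its values are not independent evidence. The No NEC pigs had 69.7, 83.9, 108, 109 and 127 FPKM and the Co-NEC pigs 92.6, 93.3, 95.7, 107 and 121 FPKM. The Si-NEC pigs ranged from 55.7 to 99.7, with a median of 68.2 FPKM. Of the 6 Si-NEC pigs, 5 lay below every Co-NEC pig and 3 below every No NEC pig. The difference was -0.51 ± 0.14 (SE; exact permutation p = 0.0173) relative to Co-NEC, a mean 29.2% lower. Relative to No NEC it was -0.46 ± 0.18 (exact permutation p = 0.0476), a mean 27.5% lower, and -0.53 without the 2 pigs that stood apart. Against Co-NEC the direction held in females (-0.53) and males (-0.46) and for suffix 14 (-0.49) and suffix 15 (-0.50). Co-NEC relative to No NEC was 0.06 ± 0.16 (exact permutation p = 0.778), and turned to -0.06 without pig 230-15.

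ELOVL2 (ENSSSCG00000001045) encodes an elongase of polyunsaturated fatty acids on the way to docosahexaenoic acid. The Co-NEC pigs had 43.7, 44.0, 44.8, 48.1 and 49.5 FPKM and the No NEC pigs 27.2, 36.1, 36.2, 42.3 and 42.5 FPKM. The Si-NEC pigs ranged from 32.1 to 39.5, with a median of 36.2 FPKM. All 5 Co-NEC pigs lay above all 5 No NEC and all 6 Si-NEC pigs. Among all entries, 0.235% were higher without overlap in Co-NEC against No NEC and 0.235% lower without overlap in Si-NEC against Co-NEC. The difference was 0.33 ± 0.13 (SE; exact permutation p = 0.00794) for Co-NEC relative to No NEC and -0.35 ± 0.08 (SE; exact permutation p = 0.00433) for Si-NEC relative to Co-NEC, each the smallest p these group sizes can give. Its adjusted p in limma was 0.812 and 0.767. Si-NEC and No NEC had means of 35.9 ± 3.04 and 36.8 ± 6.26 FPKM and did not differ beyond the spread (exact permutation p = 0.883). Without pig 230-15, the lowest of the No NEC pigs, Co-NEC relative to No NEC was 0.23. Within suffix 14 and suffix 15 the Si-NEC difference from Co-NEC was -0.53 and -0.26.

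ACLY, ACACA and FASN are the core of the branch: ATP citrate lyase supplies cytosolic acetyl-CoA, acetyl-CoA carboxylase makes malonyl-CoA, and fatty acid synthase builds palmitate. FASN (ENSSSCG00000029944) had 27.4, 102, 105, 111 and 133 FPKM in No NEC, 88.7, 95.9, 100.4, 121 and 132 FPKM in Co-NEC and 45.1 to 134, with a median of 99.4 FPKM in Si-NEC. The values of 27.4 FPKM in pig 230-15 and 45.1 FPKM in pig 223-15 were far under those of the 14 other pigs, which lay between 80.7 and 134 FPKM. FASN differed from No NEC by 0.11 ± 0.40 (exact permutation p = 0.797) in Si-NEC and by 0.32 ± 0.37 (exact permutation p = 0.722) in Co-NEC, and these turned to -0.09 and -0.08 when both pigs were left out. Si-NEC relative to Co-NEC was -0.22 ± 0.24 (exact permutation p = 0.511), and -0.02 without pig 223-15. No direction can be given for FASN.

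ACACA (ENSSSCG00000017694) had 11.7, 17.9, 18.1, 22.6 and 24.2 FPKM in No NEC, 21.3, 22.2, 22.8, 23.9 and 24.1 FPKM in Co-NEC and 14.1 to 22.3, with a median of 20.3 FPKM in Si-NEC. Pigs 230-15 and 223-15 were again the lowest of their groups. The Co-NEC pigs were close together, and 4 of 6 Si-NEC pigs lay below all of them, a difference of -0.23 ± 0.11 (SE; exact permutation p = 0.0216). It was -0.13 without pig 223-15. Co-NEC relative to No NEC was 0.31 ± 0.17 (exact permutation p = 0.127), and 0.15 without pig 230-15. ACLY (ENSSSCG00000017421) had 31.6, 64.2, 65.0, 80.3 and 81.2 FPKM in No NEC, 57.2, 67.7, 70.3, 74.9 and 88.5 FPKM in Co-NEC and 52.3 to 80.8, with a median of 71.5 FPKM in Si-NEC. It did not differ beyond the spread in any comparison, with exact permutation p of 0.641, 0.571 and 0.706.

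The other elongation and desaturation genes were HACD3, a hydroxyacyl-CoA dehydratase of the elongation cycle, ELOVL4, an elongase of very long chains, and FADS1 and FADS2, the desaturases of polyunsaturated fatty acids. HACD3 (ENSSSCG00000004935) had 41.9, 45.9, 53.1, 53.8 and 58.0 FPKM in No NEC, 48.1, 52.9, 54.9, 56.2 and 58.2 FPKM in Co-NEC and 42.0 to 71.5, with a median of 55.6 FPKM in Si-NEC. Its highest value belonged to pig 223-15, and exact permutation p was 0.494, 0.317 and 0.939 in Si-NEC against No NEC, Co-NEC against No NEC and Si-NEC against Co-NEC. ELOVL4 averaged 33.3 ± 9.62 FPKM in No NEC, 35.0 ± 5.19 FPKM in Co-NEC and 32.6 ± 7.66 FPKM in Si-NEC. FADS1 averaged 24.7 ± 2.22, 26.3 ± 3.59 and 24.7 ± 3.95 FPKM in that order. FADS2 averaged 134 ± 36.7, 141 ± 16.6 and 135 ± 9.12 FPKM, with pig 230-15 at 72.1 FPKM and every other pig at 124 FPKM or more. None of the 3 differed beyond the spread, with exact permutation p from 0.46 up.

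Averaged over its entries, each branch can be given per pig as the mean log2 deviation from the 16 pigs. For the sterol branch it ran from -0.03 to 0.23 in Co-NEC, with a median of 0.02, from -0.05 to 0.46 in No NEC, with a median of 0.04, and from -0.49 to 0.07 in Si-NEC, with a median of -0.08. The low end of Si-NEC was pig 224-15, the lowest of all pigs in 7 of 16 entries, followed by pig 226-15 at -0.32. Both lay below the mean in all 16 entries. Si-NEC pigs 547-14 and 223-15 were at 0.03 and 0.07, inside the range of the other groups. The fatty acid branch stood at 0.03 to 0.20 in Co-NEC, at -0.50 to 0.16 in No NEC and at -0.14 to 0.04 in Si-NEC. All 5 Co-NEC pigs were above 0 and 4 of 6 Si-NEC pigs were under 0. No NEC pigs 230-15 (-0.50), 550-14 (-0.05) and 253-15 (-0.03) were under 0 too, and the other No NEC pigs above. The mean was -0.06 in both Si-NEC and No NEC, so a low fatty acid branch was not particular to Si-NEC. No NEC pig 230-15 was the highest pig of the sterol branch and the lowest of the fatty acid branch.

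**Figure D4:**
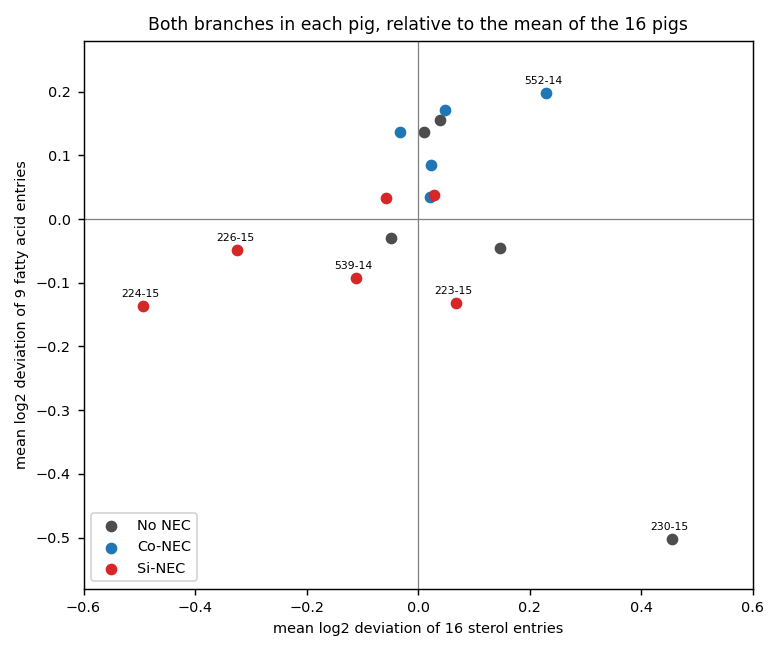
Mean log2 deviation of the 16 sterol entries (horizontal axis) and of the 9 fatty acid entries (vertical axis) from the mean of the 16 pigs, 1 point a pig, colored by group, with pigs at the edges named. Pigs 224-15 and 226-15 lie far left at -0.49 and -0.32, and pig 230-15 lies alone at the lower right at 0.46 and -0.50.

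Within the sterol branch the entries varied together. Over the 16 pigs the median Pearson correlation of the 120 pairs was 0.537, and 103 pairs were above 0, while the median over all pairs of tested entries was 0.022. Against the mean of the other sterol entries, ACAT2 had the highest correlation (0.966), followed by IDI1 (0.890) and FDPS (0.878), and LSS the lowest (0.267). Leaving out pigs 223-15 and 230-15 gave a median of 0.526. It raised LSS to 0.656 but lowered others, among them NSDHL from 0.526 to 0.234, then the lowest. The fatty acid entries were looser, with a median of 0.244 over 36 pairs, and 0.234 without both pigs. Pairs of a sterol with a fatty acid entry had a median of -0.051 over all pigs and 0.272 without both pigs. These correlations are a description over pigs of all 3 groups and were not tested.

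The array weights of limma, which give less weight to libraries that fit the model poorly, changed the number of entries called in both comparisons with Si-NEC, and the number of members called in 1. With them, 201 entries passed the threshold in Si-NEC against Co-NEC, and 6 of them were members, all lower in Si-NEC: HMGCS1, SQLE, MSMO1, SC5D, SCD and ELOVL2, with adjusted p of 0.165 to 0.191 (limma). With equal weights none of the 6 passed. The 201 were among 13590 tested entries, 100 higher and 101 lower. Array weights also raised the share of all entries at an unadjusted limma p under 0.05 in this comparison. It was 8.9% lower and 6.98% higher with them, against 2.40% and 3.25% with equal weights.

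Further genes of lipid handling were listed by function. Of 14 listed genes of sterol synthesis, its control and uptake, 7 were tested, and none passed the adjusted threshold in any comparison. At an unadjusted limma p under 0.05, 1 of the 7 was lower in Si-NEC against Co-NEC, where 2.40% of all entries were, and none differed in the other comparisons. The median difference of the 7, which mix enzymes with genes of control and uptake, was near that of all entries. It was -0.02, -0.01 and -0.01 in Si-NEC against No NEC, Co-NEC against No NEC and Si-NEC against Co-NEC. SCAP, which escorts SREBPs, averaged 30.8 ± 2.62 FPKM in Si-NEC and 30.3 ± 1.41 FPKM in No NEC.

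Of 12 genes of sterol export, esterification and the liver X receptor, 9 were tested and none had an unadjusted limma p under 0.05 in any comparison. APOE, the main apolipoprotein of the brain, averaged 2089.5 ± 551 FPKM in Si-NEC, 1689 ± 154 FPKM in Co-NEC and 2407 ± 1019 FPKM in No NEC. The 9 tested of 15 further genes of fatty acid synthesis likewise held none. Of 13 genes of fatty acid activation and glycerolipid synthesis, 9 were tested, and ACSL6, an acyl-CoA synthetase, and GPAM, a glycerol-phosphate acyltransferase, had lower means in Si-NEC than in the Co-NEC pigs at an unadjusted limma p under 0.05. ACSL6 averaged 24.6 ± 3.14 against 28.6 ± 2.02 FPKM (exact permutation p = 0.0476) and GPAM 20.9 ± 2.13 against 24.6 ± 3.1 FPKM (exact permutation p = 0.0519).

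Cell type markers are given beside these values, and their part in them was not tested. No marker of these lists passed the adjusted threshold in any comparison. Over all entries, 46.3% were under 0 and 53.7% above in Si-NEC against No NEC, and 50.0% were on each side in Si-NEC against Co-NEC. Oligodendrocytes are heavy users of these pathways, and of 9 tested entries of oligodendrocyte markers 7 were under 0 in Si-NEC against No NEC (median -0.04) and 8 in Si-NEC against Co-NEC (median -0.12). Their summed level was 1650 to 3549 FPKM in Si-NEC, 1990 to 3708 FPKM in Co-NEC and 1780 to 3305 FPKM in No NEC, and no tested marker of the list was at 0. OPALIN, a gene of mature oligodendrocytes, was the one with an unadjusted limma p under 0.05, at 32.4 ± 10.96 FPKM in Si-NEC, 48.1 ± 15.1 FPKM in Co-NEC and 53.3 ± 21.2 FPKM in No NEC. The study also picked OPALIN from these pigs, so its values are not independent evidence. Of 5 endothelial entries, 5 were above 0 in Si-NEC against No NEC and 4 in Si-NEC against Co-NEC, with sums of 22.9 to 42.4 FPKM in Si-NEC, 20.2 to 27.0 FPKM in Co-NEC and 13.1 to 32.6 FPKM in No NEC. Of 7 tested neuron markers, 6 were under 0 in Si-NEC against No NEC (median -0.09) and 4 in Si-NEC against Co-NEC (median -0.12). GAD1, the enzyme that makes GABA in inhibitory neurons, averaged 82.4 ± 2.97 FPKM in Si-NEC and 94.3 ± 6.49 FPKM in No NEC (exact permutation p = 0.00866), with 5 of 6 Si-NEC pigs below every No NEC pig. SYT1, a calcium sensor of synaptic vesicles, averaged 291 ± 25.2 FPKM in Si-NEC and 341 ± 31.9 FPKM in Co-NEC (exact permutation p = 0.0173). Each had an unadjusted limma p under 0.05 in that comparison. Astrocyte, neuron and microglia sums overlapped between all groups, at 948 to 1584, 2075 to 2717 and 40.9 to 119.6 FPKM in Si-NEC. Astrocyte markers were above 0 in 4 of 5 entries in Si-NEC against No NEC (median 0.17) and in 3 in Si-NEC against Co-NEC (median 0.08). Microglia markers were under 0 in 4 and 3 of 5 entries in the same order (medians -0.09 and -0.15). No entry of these 2 lists had an unadjusted limma p under 0.05. The astrocyte marker ALDH1L1 was listed at 0 in all pigs.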

How the data were processed

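Groups and sexes of the 16 pigs, from which hippocampal RNA was sequenced, were taken from the labels. Reads trimmed by the authors were mapped with Tophat (v2.1.1) to the Sscrofa10.2 genome, FPKM came from Cufflinks (v2.2.1), and the deposited FPKM values were used as they stand. Scaling between pigs is not given in the sources used here, and FPKM without counts gives no depth, interval or detection limit.

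Symbols were joined through a reference table of gene names. The 1779 rows identical to another row were dropped, and a mean FPKM of 0.5 or more over all pigs was required. Each pair of groups was fitted in limma (version 3.58.1, R version 4.3.3; lmFit and trended eBayes) on log2(FPKM + 0.5), with no covariate, and p was adjusted over 13590 entries by the Benjamini-Hochberg method, with the study's threshold of 0.2. A fold on this scale understates the change of low genes. Single members were compared by two-sided exact permutation tests of the mean log2 value (scipy 1.17.1), where the smallest p is 0.00433 for 6 against 5 pigs and 0.00794 for 5 against 5. The fits were tested on simulated data. Pigs are separate animals, named here by the pig numbers of the labels.

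The members, the other gene lists and the tests were chosen with earlier results of these data known, so p-values of members describe these pigs. Described in each pig or by group range are HMGCS1, SQLE, INSIG1, SCD and FASN. The same holds in each branch for the 3 members with the smallest limma p in each comparison. SREBF2 and SREBF1 were chosen for this too, but SREBF2 was listed at 0 in every pig and SREBF1 was not matched by symbol. The remaining members are given by their group means, and FDPS, SC5D and MSMO1 were described further after their values were seen. From other lists, up to 4 genes with an unadjusted p under 0.05 may be named, and SCAP, APOE, ALDH1L1 and the hippocampal markers were added after their values were seen. Some genes of these lists are not reported here. The alternatives tried were no filter, a minimum of 1 FPKM, a pseudocount of 0.1 or 1, rescaling by the median of ratios, 3 groups in one fit, covariates for sex and number suffix, eBayes without trend and robust, array weights, an adjusted p of 0.05, leaving out each pig, and leaving out pigs 223-15 and 230-15 together.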

Additional observations from a re-analysis of the deposited data

Results flagged for a closer look

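In 75 groups of pigs (25 entries in 3 groups), the gap of the most extreme pig to its neighbor was compared with the range of the group on the log2 scale by Dixon's test, and 11 groups held a pig past the 95% limit, where chance gives about 5%. Of the 11, 9 were in pigs 223-15 and 230-15, and the source of the difference was not tested.

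In No NEC pig 230-15, the gap took 0.8069 of the range for FDPS and 0.73 for NSDHL, which were high, and 0.8323 for FASN, 0.751 for ACLY and 0.7279 for FADS2, which were low. In Si-NEC pig 223-15, it took 0.9403 for MSMO1, 0.6275 for NSDHL and 0.6801 for ELOVL4, which were high, and 0.6997 for ACACA, which was low. The other 2 were Co-NEC pigs, 552-14 with a ratio of 0.853 for ACAT2 (134 FPKM) and 255-15 with 0.8039 for DHCR7 (50.5 FPKM), both high. No member had a difference between the sexes that passed an interaction test in limma at an adjusted p of 0.2.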

How the results depend on the processing

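No paired analysis was possible because the labels give no replicate number shared between groups. No member passed the adjusted threshold in any comparison under any alternative except array weights. With those, 6 did in Si-NEC against Co-NEC, among 201 of all 13590 entries. Of 658 alternative values for the 29 member differences that are printed, 647 kept their direction. The 11 that turned belonged to FASN and SCD, and the cause was not tested. FASN in Si-NEC against No NEC (0.11) was -0.0792 with array weights and -0.0949 without pigs 223-15 and 230-15, and ranged from -0.30 (without pig 230-15) to 0.31 when 1 pig was left out, with -0.0039 without pig 547-14. FASN in Co-NEC against No NEC (0.32) was -0.0413 with array weights, -0.0784 without both pigs, and -0.0784 to 0.49 with 1 pig left out. SCD in Co-NEC against No NEC (0.06) was -0.0376 with array weights, -0.0614 without both pigs and -0.0614 to 0.15 with 1 pig left out, with -0.0053 without pig 552-14.

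Over all entries, Si-NEC against No NEC called 1 entry, 2 with the suffix as covariate, 4 with array weights and 1 to 3 with 1 pig left out (3 without 540-14). Co-NEC against No NEC called 1, and 4 with no filter and 1 to 2 with 1 pig left out (2 without 225-15 or 540-14). Si-NEC against Co-NEC called 2, and 1 with a pseudocount of 0.1, no filter, 3 groups in one fit, sex or suffix as covariate, an adjusted p of 0.05, or without pigs 223-15 and 230-15. It called 201 with array weights and 1 to 12 with 1 pig left out (12 without 547-14, 5 without 255-15). The median differences of the branches moved by less than the larger of the SDs between pigs of the groups compared in all 136 alternatives, but some moved by more than the smaller SD, and 5 changed sign. The sterol median in Si-NEC against Co-NEC was -0.32 with array weights. The fatty acid median in Si-NEC against No NEC (0.06) was -0.0517 with array weights, -0.0577 without both pigs and -0.0781 without pig 230-15, and the sterol median in Co-NEC against No NEC (-0.09) was 0.0039 without pig 230-15, alone or with 223-15. With 1 pig left out, the sterol median ranged from -0.30 to -0.16 in Si-NEC against No NEC, from -0.14 to 0.00 in Co-NEC against No NEC and from -0.27 to -0.12 in Si-NEC against Co-NEC. The fatty acid median ranged from -0.08 to 0.12, from 0.09 to 0.20 and from -0.17 to -0.07 in the same order. Depth is unknown, so no limit from counting can be given.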

Other observations

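Among 9043 tested entries with a symbol outside the members, TNNI1 (0.912), NELFE (0.899), GJB1 (0.881), RAB33A (0.865) and VPS16 (0.859) had the highest Pearson correlations over the 16 pigs with the mean log2 value of the sterol members. Without pigs 223-15 and 230-15, these were 0.882, 0.844, 0.838, 0.791 and 0.799. The highest for the fatty acid members were AP2B1 (0.931), YEATS2 (0.928), TMTC3 (0.928), CLTC (0.922) and OPA1 (0.920), and without both pigs they fell to 0.778, 0.775, 0.802, 0.747 and 0.733. Each is the top of many correlations over few pigs and is given as a description with no test.

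Other marker lists differed at single genes at an unadjusted limma p under 0.05. S100A8, a calcium-binding protein of neutrophils, averaged 12.5 ± 9.26 FPKM in Si-NEC, 1.37 ± 0.635 FPKM in Co-NEC and 1.74 ± 0.912 FPKM in No NEC, and it was the one tested gene of the neutrophil list. CSF3R of that list was listed at 0 in all 16 pigs, and the study picked S100A8 from these pigs, so its values are not independent evidence. PECAM1 and CLEC14A of the endothelial list averaged 9.79 ± 2.71 and 4.69 ± 1.85 FPKM in Si-NEC against 6.75 ± 1.1 and 2.76 ± 0.283 FPKM in Co-NEC (exact permutation p = 0.026 and 0.0606). The study picked both of these genes from these pigs too. PDGFRA, the receptor of oligodendrocyte precursors, averaged 14.4 ± 2.97 FPKM in Si-NEC and 17.99 ± 1.99 FPKM in Co-NEC (exact permutation p = 0.0346). The rest of its list went the other way, as 4 of 5 precursor entries were above 0 in that comparison (median 0.06) and 1, PDGFRA, was under 0. NEUROD1 averaged 9.71 ± 1.07 FPKM in Si-NEC and 7.76 ± 1.21 FPKM in No NEC (exact permutation p = 0.0173). The erythroid sums were 22.3 to 247.9 FPKM in Si-NEC, 72.3 to 328.6 FPKM in Co-NEC and 85.6 to 1297.5 FPKM in No NEC.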
